A study of Drosophila melanogaster with 6 samples.

Results

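The stretch of chromosome arm 2L that carries the paired POU genes nub and pdm2 held 9 of the 11713 binding peaks listed for GAGA factor (GAF) in Drosophila melanogaster embryos. Its peaks were taken by position alone: a midpoint from 12580000 to 12690000 on 2L of FlyBase release 5, a length of 110 kb. The 9 peaks belong to the 1355 peaks of 2L and are called peaks 1 to 9 from the lower to the higher coordinate.

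GAF binding was measured by ChIP-seq, the sequencing of DNA recovered with an antibody from cross-linked chromatin, in 3 GAF ChIP libraries and 3 input libraries, input being chromatin DNA sequenced without immunoprecipitation. All 6 libraries came from whole embryos of 8 to 16 h of the strain Y cn bw sp, cross-linked in 1.8% formaldehyde for 15 min. Per the labels this strain carries y[1] and oc[R3.2], with Gr22b[1], Gr22d[1] and cn[1], then CG33964[R4.2], bw[1] and sp[1], together with LysC[1], lab[R4.2] and MstProx[1], and also GstD5[1] and Rh6[1]. The antibody, KW3-Trl-D2, was a rabbit polyclonal raised against part of GAF. The authors deposited 1 peak list for all libraries, so no value below has a replicate error, ChIP could not be set against input, and the depth is unknown. Whole embryos mix all tissues of their stages, so a peak does not say in which cells GAF was bound.

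GAF, encoded by Trl, binds GA-rich DNA through a zinc finger and is known for keeping promoters accessible and for its presence at Polycomb response elements. nub, also called pdm1, and pdm2 encode closely related transcription factors with a POU domain and a homeodomain. In the embryonic nerve cord both are known as temporal identity factors of neuroblasts, acting after Krüppel and before castor, and nub is also needed in the developing wing. The gene table of release 6 served only for names, order and overlap of genes. In it nub is followed by Ref2, which overlaps it, and then by pdm2, which has Nepl7 inside it. Ref2 encodes an RNA export factor and Nepl7 a neprilysin-like protein. No gene of that table lay wholly between nub and pdm2. The next genes beyond pdm2 were CCT4, a chaperonin subunit, CG6153 and IFT43, an intraflagellar transport protein, and the 4 genes before nub were long non-coding RNAs. The table is of another build than the peaks, so no peak was placed at a promoter, exon or intron of these genes.

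The stretch held 4 very strong peaks and 5 weak ones, with none in between. Peaks 1, 3, 5 and 9 had scores of 1020.83, 1608.33, 1279.83 and 1364.62, where the score is the authors' own value for each peak, on a scale not given in the sources used here. Peaks 2, 4, 6, 7 and 8 had scores of 28.37, 13.54, 14.24, 52.05 and 12.33. The lowest of the strong peaks scored 1020.83 and the highest of the weak ones 52.05. No peak of the stretch scored from 100 to 1000, a range that held 36.4% of the peaks of 2L. The bounds of that range were chosen after the scores were seen, to describe the empty interval, so the count of 0 is no result of its own.

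**Figure D1:**
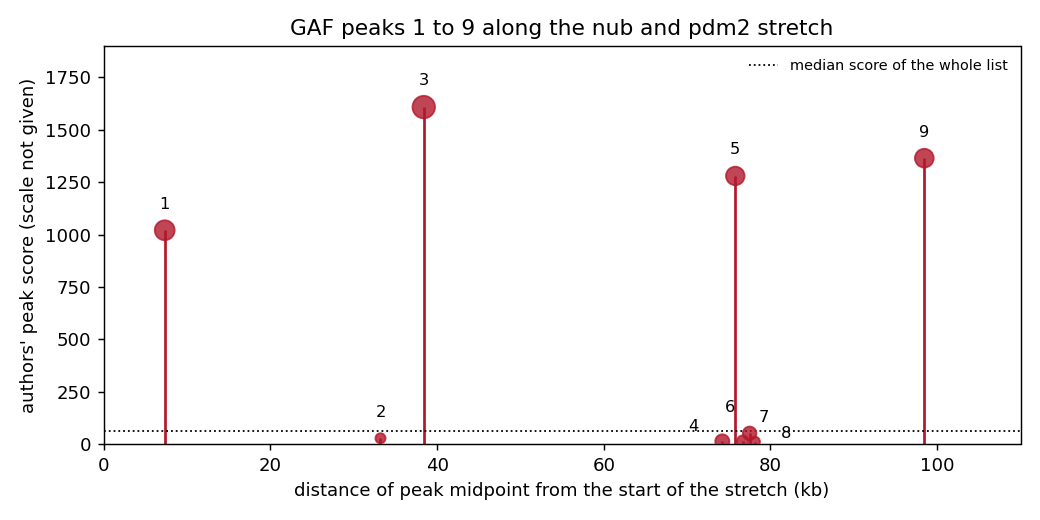
Score of GAF peaks 1 to 9 (vertical axis, authors' score) against the distance of each midpoint from the start of the stretch in kb; the area of a circle is proportional to peak width and the dotted line is the median score of the whole list, 64.7. Peaks 1, 3, 5 and 9 stand above 1000 and the other 5 lie under the dotted line.

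The strong peaks ranked among the highest in the list. Peak 3, on 2L from 12617629 to 12619181, ranked 73 of 11713 by score and 15 of 1355 on 2L. Peak 9, from 12677918 to 12679002, ranked 215 in the list and 39 on 2L. Peak 5, from 12655255 to 12656310, ranked 286 and 49. Peak 1, from 12586711 to 12587925, ranked 563 and 98, so that the weakest of them still exceeded 95.2% of the list and 92.7% of 2L. In all, 4 of the 9 peaks scored 1000 or more, a threshold chosen after the values were seen, against 5.07% of the list and 7.75% of 2L. The count at or above the list median of 64.7 was also 4 of 9, or 44.4% (Wilson 95% interval 18.9 to 73.3), against 50.0% of the list and 49.8% of 2L. The share above the median was thus close to that of the list, and every peak of the stretch above it scored over 1000.

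The weak peaks lay in the lower part of the list without standing at its very end. Peak 7, from 12657220 to 12657786, ranked 6288 by score, and 46.3% of the list scored lower. Peak 2, from 12613056 to 12613368, ranked 7541. Peak 4, from 12653912 to 12654522, ranked 9846, and peak 6, from 12656463 to 12656875, ranked 9635. Peak 8, from 12657988 to 12658296, had the lowest score of the stretch and ranked 10210, with 12.3% of the list below it. Under a score of 20 were 3 of the 9 peaks, or 33.3%, against 30.0% of 2L. The median score of the 9 peaks, 52.05, belonged to the weak set and was near the 62.74 of all peaks of 2L. It became 1150.33 when peaks under 500 bp apart were joined, so the median depended on how the close peaks were listed. A joined region took the highest score of its parts. The median of 2L was not computed after joining, so 1150.33 has no matching value to be set against.

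Width separated the same sets of peaks, though the strong peaks ranked lower by width than by score. Peaks 1, 3, 5 and 9 were 1215, 1553, 1056 and 1085 bp wide and ranked 1412, 912, 1740 and 1680 by width in the list. Peaks 2, 4, 6, 7 and 8 were 313, 611, 413, 567 and 309 bp wide and ranked 9023, 3935, 6639, 4378 and 9114. The sets did not overlap, since every strong peak was at least 1056 bp wide and every weak one at most 611 bp. Across the list, peaks with widths like those of the weak peaks had median scores from 19.67 to 182.02. For widths like those of the strong peaks the medians were 454.44 to 634.71. Wider peaks thus scored higher in the list at large, and the separation by width is no separate result. How often other strong and weaker peaks are separated by width was not computed. Of the 9 peaks, 4 were 1 kb or wider, against 16.3% of the list and 23.4% of 2L. The median width of the 9 was 611 bp, against 544 bp on 2L.

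Set beside peaks of the whole list of nearly the same width (0.9 to 1.1 times), peaks 3, 5 and 9 were high. Of the 11713 peaks of that list, 7429 lie on the chromosome arms and the rest on other sequences. Peak 3 scored above 98.4% of 315 such peaks, whose median was 634.71. Peak 9 scored above 97.1% of 520 and peak 5 above 96.0% of 553. Peak 1 was less extreme, above 84.4% of 474 peaks with a median of 506.24. Among the weak peaks the order was different. Peak 2 scored 28.37 where peaks of its width had a median of 20.65, and it exceeded 62.9% of them. Peak 4, the widest of the weak peaks, scored 13.54 where peaks of its width had a median of 182.02, and it exceeded only 3.07% of 1139 such peaks. Peak 6 exceeded 9.89%, peak 8 exceeded 23.0% and peak 7 exceeded 26.7%. The 4 weak peaks next to peak 5 were thus low for their width, while peak 2, which stands alone, was above the middle. Width and score come from the same peak calls and are not separate measurements.

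**Figure D2:**
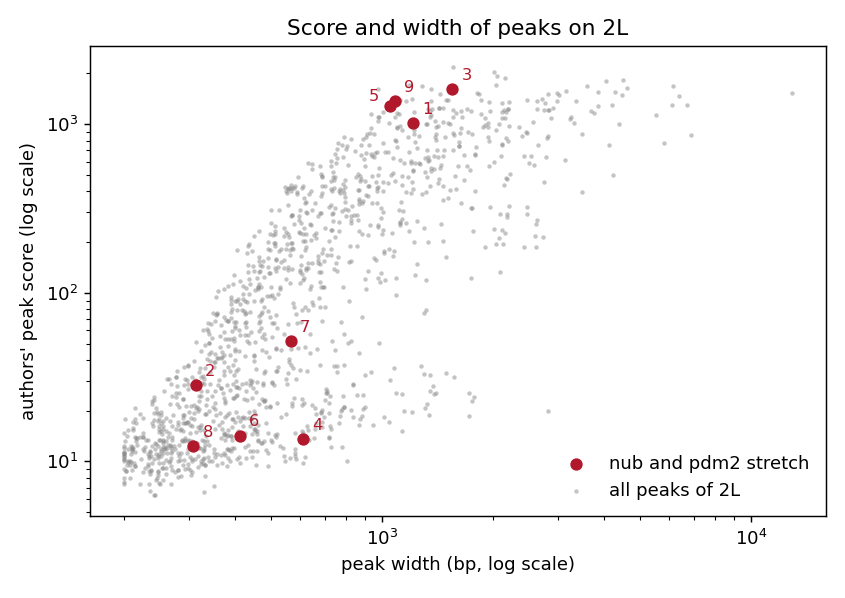
Authors' score against peak width in bp, both on log scales, for the 9 peaks of the nub and pdm2 stretch (red, numbered) and all 1355 peaks of 2L (grey). Peaks 3, 5 and 9 lie near the upper edge of the cloud for their width, and peak 4 near its lower edge.

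By length, the strong peaks made up 4909 of the 7122 bp covered by peaks in the stretch, or 68.9%, and the weak peaks the remaining 2213 bp. The split into strong and weak peaks was made after the scores were seen. The same share was not computed for other stretches or for the whole list, so whether 68.9% is unusual was not tested.

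The peaks fell into 1 tight group and 4 isolated sites. Peaks 4 to 8 lay within 4385 bp, from 12653912 to 12658296, with gaps of 732, 152, 344 and 201 bp from the end of one peak to the start of the next. Peak 5 was the strong member of the group, with peak 4 on its lower side and peaks 6, 7 and 8 on its upper side. Peaks covered 67.4% of the length of the group. When peaks under 2 kb apart were put together, 2L had 807 groups, of which 26, or 3.22%, had 5 or more peaks. A peak of 1000 or more was present in 8 of those 26. Of the 26, 3 were shorter than the group around peak 5, and the median length of the 26 was 8114 bp. The group around peak 5 had 5 peaks, the lowest number allowed in this set, while the largest group of 2L had 41. Its length was not set against other groups of 5 peaks, so whether it is compact was not tested. Whether peaks 4 to 8 are separate sites or 1 broad bound region listed in parts cannot be told apart from a peak list.

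Apart from peaks 2 and 3, the isolated peaks were separated from their neighbours by gaps of over 15 kb without any listed peak. The gap before peak 1 was 22859 bp and the one between peaks 1 and 2 was 25130 bp. Peaks 2 and 3 were 4260 bp apart, a gap longer than 49.5% of those on 2L. The widest gap inside the stretch, 34730 bp between peaks 3 and 4, exceeded 84.6% of the 1354 gaps of 2L. It was followed by the group of 5 and a gap of 19621 bp up to peak 9. Beyond peak 9 the next gap was 39537 bp, longer than 87.1% of those on 2L. Of the 8 gaps inside the stretch, 4 were under 1 kb, against 32.2% on 2L, 3 were over 15 kb, against 31.5% on 2L, and the remaining one was the 4260 bp between peaks 2 and 3. The 3 long gaps together took 79.5 kb of the 92.3 kb from peak 1 to peak 9. The median gap was 2496 bp, against 4375 bp on 2L. It fell between the gaps of 732 and 4260 bp, and no gap of the stretch was near it. Under other settings it became 732, 19621 or 29703 bp, so it does not show a closer spacing than on 2L.

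**Figure D3:**
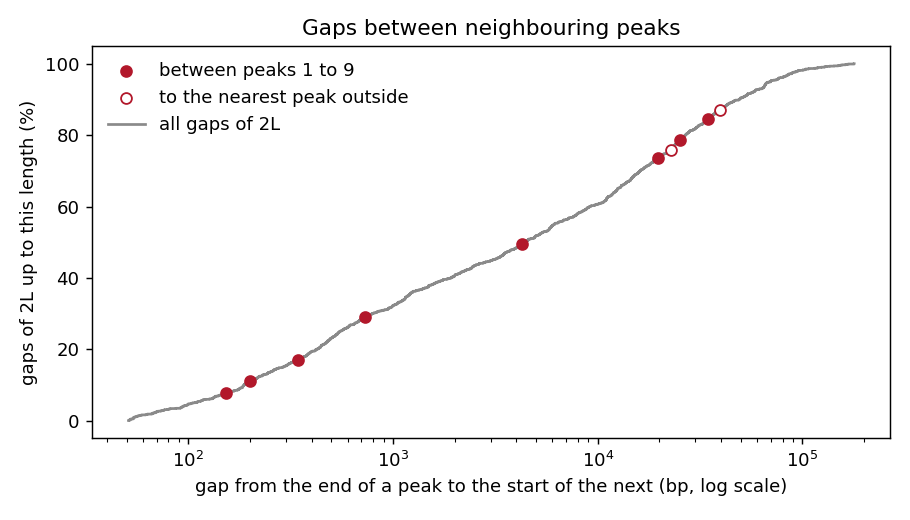
Gap lengths in bp (log scale) against the percentage of gaps of 2L up to that length; filled red points are the 8 gaps between peaks 1 to 9, open points the gaps to the nearest peak outside on each side, and the grey line all 1354 gaps of 2L. The points fall into a short set of 152 to 732 bp, a single gap of 4260 bp and a long set from 19621 bp upwards.

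The strong peaks followed each other at 31.1 kb from peak 1 to 3, 37.4 kb from peak 3 to 5 and 22.7 kb from peak 5 to 9, between midpoints. Over the 104 distances between successive peaks of 1000 or more on 2L the median was 111 kb. Those 3 distances were longer than 20.2%, 23.1% and 16.3% of them. All 3 lie inside 110 kb, so none could reach that median. Their shortness follows from the count of 4 strong peaks, at a threshold chosen after the values were seen. It is no separate result. Peaks 1, 3 and 9 had no other peak within 2 kb, as held for 53 of the 105 peaks of 1000 or more on 2L, or 50.5%. Of the 5 weak peaks, 4 lay within 2 kb of a strong one, all of them beside peak 5, against 6.72% of the 1250 weaker peaks of 2L. The remaining weak peak, peak 2, ended 4260 bp before peak 3. The 4 share 1 neighbour and are not independent of each other.

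The widest gap left strong peaks on both sides. The side after the gap held 6 peaks, 2 of them strong, and the side before it held 3 peaks, 2 of them strong. Covered length was 4041 bp after the gap and 3081 bp before it. Which gene lies on which side was not looked up on release 5.

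The crowding of the stretch was read against the 207 other complete 110 kb stretches of 2L, tiled from its own bounds. With 9 peaks it was above the median of 5 (quartiles 3 and 8); 157 stretches, or 75.8%, had fewer peaks, 18 had as many and 32 had more. Peaks covered 7122 bp, or 6.47% of its length, against a median of 3791 bp, and 76.3% of the others had less. The number of peaks was thus moderate, far under the highest of 50. Scores were also summed over each stretch; since their scale is not known, such a sum orders stretches only on the scale as listed. The summed score was 5394.14 against a median of 1270.4 (quartiles 495.11 and 2375.26), with 96.1% of the others lower and 8 higher. It was also above each of the 18 stretches that had 9 peaks, whose summed scores ranged from 122.9 to 4297.04. Its 4 peaks of 1000 or more were matched by 1 other stretch and exceeded by 1. These peaks made up 5273.61 of the summed score of 5394.14, so both ranks rest on the same peaks and are not separate observations. As 1 stretch has no replicate, these ranks carry no test, and nothing is called particular to the stretch from them.

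**Figure D4:**
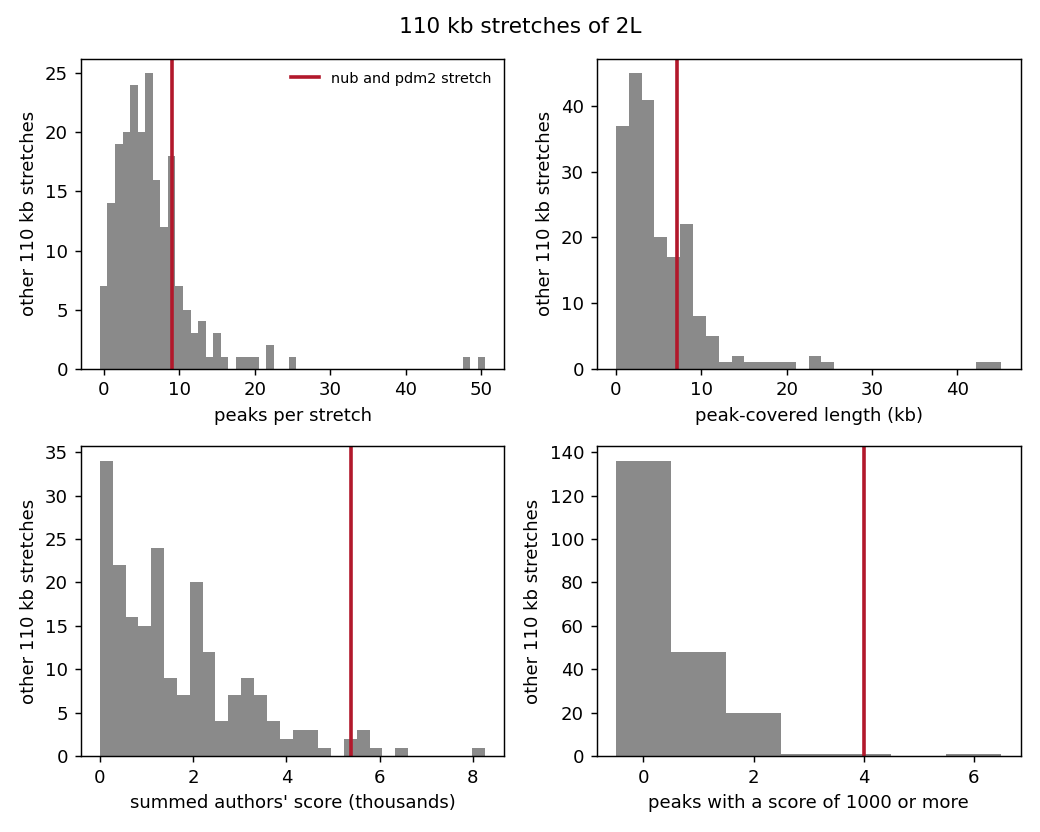
Numbers of the 207 other 110 kb stretches of 2L (grey bars) by peak number, peak-covered length in kb, summed authors' score and number of peaks with a score of 1000 or more; the red line is the nub and pdm2 stretch. The line lies to the right of most stretches for peak number (9), summed score (5394.14) and strong peaks (4). Beyond it lie 8 stretches for summed score and 1 for strong peaks.

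The stretch that exceeded it in strong peaks was its own neighbour. The 110 kb just before it held 22 peaks with a summed score of 8256.95, the highest of 2L, and 6 peaks of 1000 or more. The 110 kb just after it held 9 peaks, as many as the nub and pdm2 stretch, but a summed score of 1401.2 and no peak above 683.68. The nearest peaks outside lay well away from the bounds: 1 with a score of 12.06 ended 16.1 kb before the lower bound, and 1 with a score of 224.3 began 28.5 kb after the upper bound. Just inside, peaks 1 and 9 were both strong.

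The 3 stretches of 2L nearest to it in peak number, covered length and summed score were found by the smallest summed difference in rank. All 3 had summed scores below its 5394.14. That from 5210001 to 5320000 had 9 peaks, 8401 bp and a summed score of 3586.7. That from 21160001 to 21270000 had 10 peaks, 7972 bp and 3709.67. That from 15660001 to 15770000 had 9 peaks, 8001 bp and 3105.74. Their peaks of 1000 or more numbered 1, 1 and 2, against 4 in the nub and pdm2 stretch. Those 4 peaks made up 97.8% of its summed score, at a threshold chosen after the values were seen. The difference in strong peaks is thus not separate from the difference in summed score.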

How the data were processed

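CASAVA 1.7.0.2, CASAVA 1.7.0.3, BWA, MACS2 and the build BDGP5 are named, without roles, per the submitters' processing notes. Coordinates are on FlyBase release 5, per the file headers. The authors deposited 1 peak list with a start, an end and a score per peak. The scale of the deposited score is not stated, and the threshold for calling a peak and any pooling of libraries are likewise not given in the sources used, so the score served to describe, rank and filter peaks within the list. Sums of scores per stretch were used to rank stretches, and that ranking depends on the unknown scale. Printed starts are the listed starts plus 1, because the list begins at 0 and the smallest difference of end and start was 200 bp.

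Computed here were ranks, widths, gaps, groups (gaps under 2 kb) and counts per 110 kb stretch, in Python 3.11.15 (pandas 2.3.3, numpy 2.4.6, matplotlib 3.10.9 for figures and scipy 1.17.1 for intervals). Counting was tested on simulated data. No test between groups was possible. Members, stretches and thresholds were chosen with earlier results of these data known. Every peak of the stretch is named. Comparisons by score of 1000, the range of 100 to 1000, like width, strong spacing and sides of the widest gap were chosen after the values were seen. Intervals are Wilson 95% intervals, cover counting error only, and take neighbouring peaks as independent. The gene table was of release 6, so its coordinates served only for the order and overlap of genes. They were not set against the peaks, and no sequence was used.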

Additional observations from a re-analysis of the deposited data

How the results depend on the processing

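Of 60 values under alternatives for 10 results, 48 stayed within 1.5 times of a count or median, or within the Wilson interval of a share. That tally is no measure of robustness. Membership by any overlap gave the same values as the main setting. Widening by 10 kb could add no peak, since the nearest outside lay 16.1 and 28.5 kb away. For the share at or above the list median the interval was wide, 18.9 to 73.3%. The share of other stretches with a lower summed score stayed at 96 to 97.6% and that with less covered length at 71.8 to 78.4% in all 8 settings of each. The share with fewer peaks was 75.8% in the main setting and 67.4% with the stretch widened by 10 kb on each side. Widening lengthened the other stretches as well, which then numbered 175 instead of 207, while this stretch kept its 9 peaks. The share was 65.2% with peaks under 500 bp apart joined and 59.7% among peaks at or above the list median score. That last setting left 4 peaks, with a median score of 1322.22, a median width of 1150 bp and a median gap of 29703 bp. With joining under 500 bp the median score was 1150.33, the median width 1150 bp and the median gap 19621 bp. Trimming the stretch by 10 kb on each side dropped peak 1 and gave a median gap of 732 bp. The share with fewer peaks of 1000 or more, 99.0%, was 94.7% at a score of 500, chosen after the data were examined. No paired analysis was possible because the 6 libraries have no separate values in the list, and likewise no library could be left out. The share at or above the list median is fixed among peaks chosen by that median, so it was not computed there. With no depth given, the lowest detectable level of binding is unknown.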
